A study of Mus musculus with 47 samples.

Results

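The 10 genes described here encode the pore-forming subunits of the AMPA and NMDA receptors measured in mouse cortex: the AMPA receptor genes Gria1, Gria2, Gria3 and Gria4 and the NMDA receptor genes Grin1, Grin2a, Grin2b, Grin2c, Grin2d and Grin3a. They were chosen by name, with earlier results of these data known, and were matched through GENCODE M21 to the identifiers of a table of 54281 genes in TPM (transcript levels scaled for gene length and library size) and a table of 54532 genes in read counts. All 10 were in both tables, and all 10 had a mean of at least 1 TPM and so entered the tests, which covered 14580 genes. Positions given below span the whole gene on GRCm38. The samples were cortices of male C57BL/6J mice of about 3 months, 1 library per mouse. Control mice (n = 23) ate the control diet, and the others (n = 24) ate chow with 1200 ppm PLX5622, an inhibitor of the receptor CSF1R that microglia need to survive, for 10 days. Mice of both diets were killed at Zeitgeber times (ZT, hours after lights on) 2, 6, 10, 14, 18 and 22, with 4 mice in each of the 12 groups, apart from control ZT14, of which 3 were analysed here.

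Glutamate is the main excitatory transmitter of the cortex, and AMPA and NMDA receptors carry most of its fast effect. AMPA receptors are tetramers of the Gria products, open and close quickly, and let little calcium through when they hold the edited Gria2 product. NMDA receptors need the Grin1 product, which binds glycine or D-serine, together with Grin2 products, which bind glutamate and set the channel's kinetics, or with Grin3 products, and they admit calcium when glutamate arrives at a depolarised membrane. In the forebrain Grin2b leads early in life and Grin2a rises later, while Grin2c is best known from the cerebellum and, in cortex, from astrocytes, and Grin2d from interneurons and deep structures.

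Promoter sequences are shown for Grin1 and Grin2c because Grin1 had the highest level of the members and Grin2c the smallest spread. Each runs from 250 bases before to 50 bases after the annotated start in RefSeq (GRCm38.p6), on the minus strand, at chr2:25319138-25319437 for Grin1 and at chr11:115267194-115267493 for Grin2c. Capitals mark matches on either strand to the E-box CACGTG, which clock transcription factors can bind, to the GC-box GGGCGG of the SP factors, and to GCGGGGGCG, a motif of the EGR factors.
Grin1: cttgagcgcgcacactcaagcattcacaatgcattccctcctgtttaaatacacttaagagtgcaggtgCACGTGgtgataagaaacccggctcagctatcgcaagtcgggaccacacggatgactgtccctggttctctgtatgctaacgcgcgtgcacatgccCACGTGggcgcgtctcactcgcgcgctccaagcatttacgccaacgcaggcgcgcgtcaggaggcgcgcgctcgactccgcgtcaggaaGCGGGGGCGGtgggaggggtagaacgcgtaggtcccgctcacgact
Grin2c: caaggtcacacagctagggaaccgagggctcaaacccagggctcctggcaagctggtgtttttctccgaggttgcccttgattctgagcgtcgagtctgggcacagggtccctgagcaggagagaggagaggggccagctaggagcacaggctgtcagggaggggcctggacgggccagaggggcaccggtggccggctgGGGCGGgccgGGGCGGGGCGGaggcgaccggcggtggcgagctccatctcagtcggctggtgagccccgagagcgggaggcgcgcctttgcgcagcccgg
The Grin1 promoter held 2 E-boxes, 1 GC-box and 1 EGR motif, the last overlapping the GC-box. The Grin2c promoter held 3 GC-boxes, the last 2 overlapping each other, and neither of the other motifs. RefSeq promoters were matched for 5 of the 10 members. The other three of those, Gria2, Gria4 and Grin2d, held none of the 3 motifs. Over all 32544 distinct promoters of this length, 7.17% held the E-box, 35.9% the GC-box and 2.93% the EGR motif. A match describes the letters only, and no binding was measured.

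The libraries held 16597987 to 27626161 counted reads, of which mitochondrial transcripts took 6.46% to 10.0%. The markers of cortical excitatory neurons were all present (8 of 8 genes, summed 559 to 992 TPM in control and 518 to 967 TPM in PLX5622 libraries), as were those of interneurons (6 of 6, 587 to 979 TPM and 649 to 1025 TPM). Microglial markers summed to 359 to 562 TPM in control mice and to 18.9 to 89.5 TPM in PLX5622 mice, without overlap. The libraries also held transcripts known from neighbouring regions. Striatal markers summed to 113 to 516 TPM in control and 149 to 476 TPM in PLX5622 libraries, and choroid plexus markers to 65.5 to 1180 TPM and 144 to 1262 TPM. Gabra6, a marker of cerebellar granule cells, reached at least 1 TPM in 8 libraries, 4 of each diet, up to 12.8 TPM in a control and 13.9 TPM in a PLX5622 library, with medians of 0.06 TPM and 0.054 TPM. In such bulk tissue, fewer cells of a type and less RNA per cell cannot be told apart.

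Cortical AMPA receptor transcripts were led by Gria2 and Gria1, which were present at about the same level. Gria2 (chr3:80681450-80802835), whose edited product makes the channel nearly impermeable to calcium, had a lowest, median and highest level of 54.1, 76.8 and 95.5 TPM in control mice and 55.1, 86.1 and 117.5 TPM in PLX5622 mice. For Gria1 (chr11:57011387-57330244), which is central to activity-dependent insertion of AMPA receptors, the values were 59.0, 72.2 and 93.3 TPM in control and 53.2, 78.7 and 107.4 TPM in PLX5622 mice. Gria2 exceeded Gria1 in 31 of the 47 libraries (mean ratio 1.08, SD 0.20 on the log2 scale). The SD of single libraries was larger than the distance of this ratio from equality, so the order of this pair varied between libraries. Whether the mean ratio differed from equality was not tested. Gria3 (chrX:41400854-41678601), which mainly pairs with Gria2 at cortical synapses, came to 26.7, 36.8 and 45.5 TPM in control and 27.1, 40.0 and 55.5 TPM in PLX5622 mice. Gria4 (chr9:4417896-4796234), known for fast channels and for expression in parvalbumin interneurons, came to 17.6, 25.4 and 36.8 TPM in control and 19.5, 27.8 and 38.1 TPM in PLX5622 mice. In every library Gria1 exceeded Gria3, and Gria3 exceeded Gria4 in 46 of 47. The shares of the Gria genes in their summed transcript level varied between libraries. That of Gria1 ran from 30.3% to 41.4% in control and from 29.6% to 37.6% in PLX5622 mice. That of Gria2 ran from 27.3% to 39.4% in control and from 33.3% to 41.9% in PLX5622 mice. In control mice, Gria1, Gria2, Gria3 and Gria4 made up 34.5% ± 2.59, 36.1% ± 2.5, 17.2% ± 1.17 and 12.3% ± 1.32 of the summed Gria level (SD, n = 23). The shares in PLX5622 mice were 33.8% ± 2.47, 37.3% ± 2.30, 17.1% ± 1.16 and 11.8% ± 0.989 (SD, n = 24).

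Grin1 (chr2:25291181-25319187), the subunit that every NMDA receptor holds, had the highest level of the 10 members, with a lowest, median and highest value of 84.8, 119.5 and 176.0 TPM in control mice and 82.9, 114.0 and 161.3 TPM in PLX5622 mice. It exceeded Gria2 in all 47 libraries. Among the Grin2 genes, Grin2c (chr11:115249169-115267243) was the most abundant per length, at 17.7, 22.2 and 27.2 TPM in control and 19.3, 22.01 and 27.4 TPM in PLX5622 mice. This was the narrowest range of any member, with the highest library 1.55-fold above the lowest. Grin2b (chr6:135713233-136173511), which gives slow currents and binds CaMKII, spanned the widest, at 9.62, 14.3 and 28.9 TPM in control and 7.58, 18.1 and 30.5 TPM in PLX5622 mice, or 4.03-fold. Grin2c exceeded Grin2b in 40 of 47 libraries. Grin2a (chr16:9567898-9995560), whose product gives faster currents, came to 5.31, 7.35 and 13.6 TPM in control and 4.47, 8.68 and 14.3 TPM in PLX5622 mice, below Grin2b in every library. The Grin2b to Grin2a ratio averaged 1.84 ± 0.239 on the control diet (SD, n = 23) and 2.04 ± 0.331 on PLX5622 (SD, n = 24). Grin3a (chr4:49661611-49845744), whose product lowers calcium entry, came to 4.56, 6.20 and 9.07 TPM in control and 4.82, 7.06 and 10.96 TPM in PLX5622 mice. Grin2d (chr7:45831883-45878378), which gives very slow channels, was the lowest member, at 3.09, 5.08 and 6.39 TPM in control and 3.17, 4.38 and 6.63 TPM in PLX5622 mice, below Grin3a in every library. Along the order of levels, Gria4 exceeded Grin2c in 34 of 47 libraries (ratio 1.18, SD 0.35 on the log2 scale). For Grin2c and Grin2b the ratio was 1.43 (SD 0.56). In both pairs the SD of single libraries was larger than the distance from equality, and the mean ratio was not tested. Grin2d shares 643 exon bases with the antisense gene Gm45441, listed at a mean of 9.72 TPM. Since no source used here states whether strand entered the counting, reads in these shared bases cannot be told apart. Grin1 likewise shares 1307 exon bases with its antisense gene Grin1os, listed at 0.989 TPM.

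**Figure D1:**
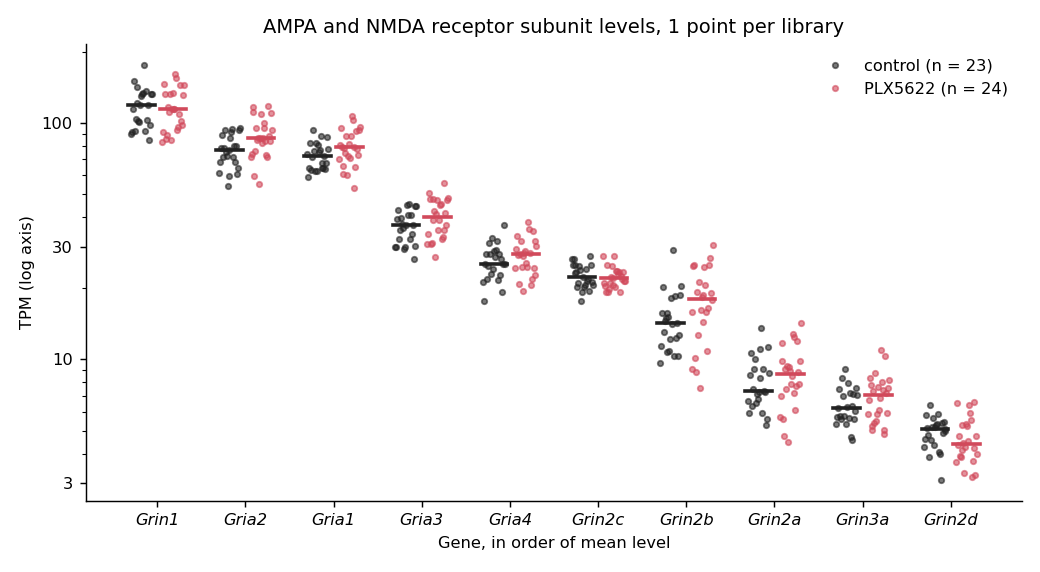
Level of each subunit in TPM on a log axis, in order of its mean, with 1 point per library (black, control, n = 23, and red, PLX5622, n = 24) and bars at the medians. Grin1 is highest with a mean of 116.6 TPM, Grin2d is lowest with 4.78 TPM, and the diets overlap for every gene.

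The comparison of PLX5622 with control asks whether the transcripts of these receptors differ when the cortex is nearly empty of microglia. None of the 10 subunits passed the test of limma (adjusted p under 0.05 over all genes), where 503 of the 14580 genes did, or 3.45%. Gria2 came nearest, with a mean of 76.7 TPM ± 12.3 in control (SD, n = 23) and 87.9 TPM ± 16.8 in PLX5622 mice (SD, n = 24), a log2 difference of 0.19 (SE 0.07, 95% interval 0.04 to 0.34, adjusted p = 0.1796 in limma). At ZT10 it was 72.5, 54.1, 59.8 and 76.8 TPM in the control mice and 86.3, 55.1, 86.3 and 109.1 TPM in the PLX5622 mice, so 1 PLX5622 mouse lay among the low control mice and the others lay above all 4. The PLX5622 mean of Gria2 was the higher at 5 of 6 times, and 6 of the 24 PLX5622 libraries exceeded every control library, but the groups overlapped at each time. At ZT14 the means were close, 90.7 TPM in PLX5622 and 90.5 TPM in control mice. Gria3 and Gria1 also had the higher PLX5622 mean at 5 of 6 times, with 7 and 5 PLX5622 libraries above every control library. In the other members these counts were at most 5 times (Grin3a) and 3 libraries (Grin2d). The shares over all genes were not computed. Among the members, 1 had an unadjusted p under 0.05 in limma, beside 2367 of the 14580 genes. This was Gria2 (unadjusted p = 0.0152, adjusted p = 0.1796). Its call depended on the model. It stayed above the threshold with edgeR (adjusted p = 0.0633) and passed with DESeq2 (log2 difference 0.16, adjusted p = 0.0479), where 7.42% of the genes passed. Adding 3 principal components of the residual spread to the model was a choice made after seeing the data. With them, Gria2 (adjusted p = 0.00143) and Gria3 (adjusted p = 0.0381) passed in limma, where 11.5% of the genes passed. The components came from the deviations of these same libraries from their group means. They left both differences unchanged, at 0.19 and 0.12, and took up residual spread, so these p-values are no separate support. Without the 8 libraries with Gabra6, the difference of Gria2 was 0.15 (adjusted p = 0.419 in limma).

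The intervals of the other members show how large a difference could have gone unseen. On the scale of log2(TPM + 1), the difference was 0.21 for Grin2b (95% interval -0.04 to 0.46, adjusted p = 0.396 in limma), with means of 14.9 TPM ± 4.45 in control and 17.9 TPM ± 6.20 in PLX5622 mice (SD, n = 23 and 24). For Grin1 it was -0.03 (-0.19 to 0.13), which as a ratio of PLX5622 to control ran from 0.88 to 1.10. For Grin2c it was -0.02 (-0.11 to 0.07), the tightest interval of the 10. The differences of Gria3, Gria1, Grin3a, Gria4 and Grin2a were 0.12, 0.11, 0.09, 0.07 and 0.07, and that of Grin2d was -0.09. The median over the members was 0.08, beside 0.03 over all genes tested, and 7 of 10 members lay above 0, beside 9448 of 14580 genes. At ZT22, Grin2d was 4.90, 5.45, 5.005 and 5.08 TPM in the control mice and 4.24, 3.24, 4.74 and 4.00 TPM in the PLX5622 mice. All 4 PLX5622 mice lay below all 4 control mice there, which held for 3.78% of the genes at that time, and at no other time for this gene. No other member had separate groups at any time.

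**Figure D2:**
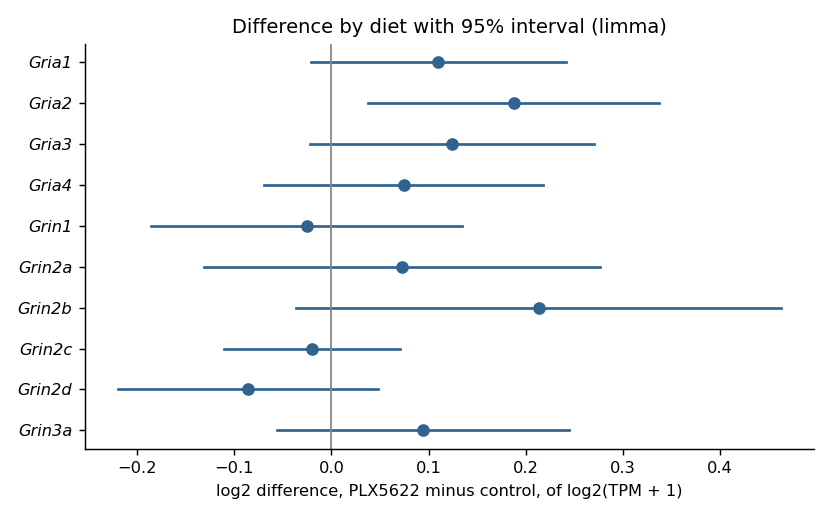
Difference between PLX5622 and control mice for each subunit on the log2 scale of log2(TPM + 1), with points at the limma estimate and lines for the 95% interval. The interval of Gria2, 0.04 to 0.34, lies above 0, all others cross 0, and that of Grin2b is the widest.

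The mice were also compared across the day, to see whether the subunits followed a 24-h rhythm in either diet. Over all 47 libraries, 0 of the 10 passed the limma test of a 24-h cosine, beside 767 of 14580 genes (5.26%). In the same test 0 of the 10 had an unadjusted p under 0.05, beside 2882 of all genes. By JTK_CYCLE within a diet, 0 of 10 passed in control mice, beside 0.0754% of the genes, and 0 of 10 in PLX5622 mice, beside 0.610%. Before adjustment, the exact test of JTK_CYCLE put 1 member under 0.05 in control mice (Grin2c, p = 0.0418, adjusted p = 0.538 over all genes) and 0 in PLX5622 mice. Of all 14580 genes, 1243 fell under 0.05 there in control mice and 1615 in PLX5622 mice. The amplitude is the height of the fitted cosine above its middle on the log2 scale. In the fit to both diets together it was at most 0.18 ± 0.09 (SE), for Grin2b with a fitted peak at ZT19.1 (adjusted p = 0.403 in limma). Fitted within each diet, the amplitude of Grin2b was 0.29 ± 0.12 in PLX5622 and 0.09 ± 0.13 in control mice (SE). The limma test of the difference in rhythm gave it an unadjusted p of 0.401. Grin1 had an amplitude of 0.12 ± 0.06 (SE) in the fit to both diets, with a fitted peak at ZT14.5 (adjusted p = 0.379 in limma). It passed only with the 3 principal components (adjusted p = 0.00547 in limma), where 18.5% of the genes passed. These components left the amplitude of Grin1 at 0.12, so this p is no separate support. The median amplitude in the fit to both diets was 0.06 over the members and 0.07 over all genes tested.

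The means by time are given as a description, with no test of single times. In control mice, 9 of the 10 subunits had their highest mean at ZT14, the group of 3 mice, soon after lights off, as did 42.0% of all genes tested. After median-of-ratios scaling the count was 8 of 10, beside 25.1% of the genes. Grin1 was 132.8, 133.6 and 176.0 TPM in these 3 mice, against group means of 111.3 TPM to 115.0 TPM at the other times, and 2 of the values lay within the range of control mice at ZT2, which reached 149.6 TPM. Grin2a had a mean of 10.98 TPM ± 2.59 at control ZT14 (SD, n = 3) and 6.92 TPM ± 0.333 at ZT10 (SD, n = 4), the lowest of the day. In PLX5622 mice, 7 subunits were highest at ZT14, and Gria2, Gria3 and Grin2b at ZT22, while 45.7% of all genes were highest at ZT14. Grin2b at ZT22 was 10.3, 12.7, 18.7 and 20.5 TPM in control and 26.9, 19.1, 17.8 and 30.5 TPM in PLX5622 mice, which overlapped. The lowest mean of 8 subunits in PLX5622 mice was at ZT6, for example 12.7 TPM for Grin2b and 100.4 TPM for Grin1, and so was that of 33.3% of all genes. Between the times of their highest and lowest mean, chosen as the extremes, the control mice did not overlap for 5 of the 10 members (Gria1, Gria2, Gria3, Grin2a and Grin2c), beside 30.4% of all genes, and the PLX5622 mice did not overlap for 0 of 10, beside 27.3%.

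Grin2c was the exception in control mice, with its highest mean at ZT2 (26.6, 25.1, 26.7 and 23.2 TPM) and its lowest at ZT14 (22.2, 20.1 and 20.7 TPM). In PLX5622 mice its level was 27.3, 21.04, 20.4 and 19.3 TPM at ZT2 and 27.4, 20.2, 23.6 and 23.6 TPM at ZT14, which overlapped. The fitted amplitude was 0.12 ± 0.04 with a peak at ZT1.18 in control mice and 0.05 ± 0.04 with a peak at ZT14.7 in PLX5622 mice (SE). In the limma test of the difference in rhythm, 0 of 10 members passed, beside 0% of all genes. Grin2c had an unadjusted p of 0.0318 there and an adjusted p of 1.0, while 669 genes in all fell under 0.05 before adjustment. In limma the unadjusted p of Grin2c moved to 0.169 with median-of-ratios scaling and to 0.203 without the libraries with Gabra6. With the replicate block it was 0.00318 in limma (adjusted p = 0.614), and with DESeq2 it was 0.0813. In the main fit, all other members had unadjusted p-values of 0.401 or more.

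**Figure D3:**
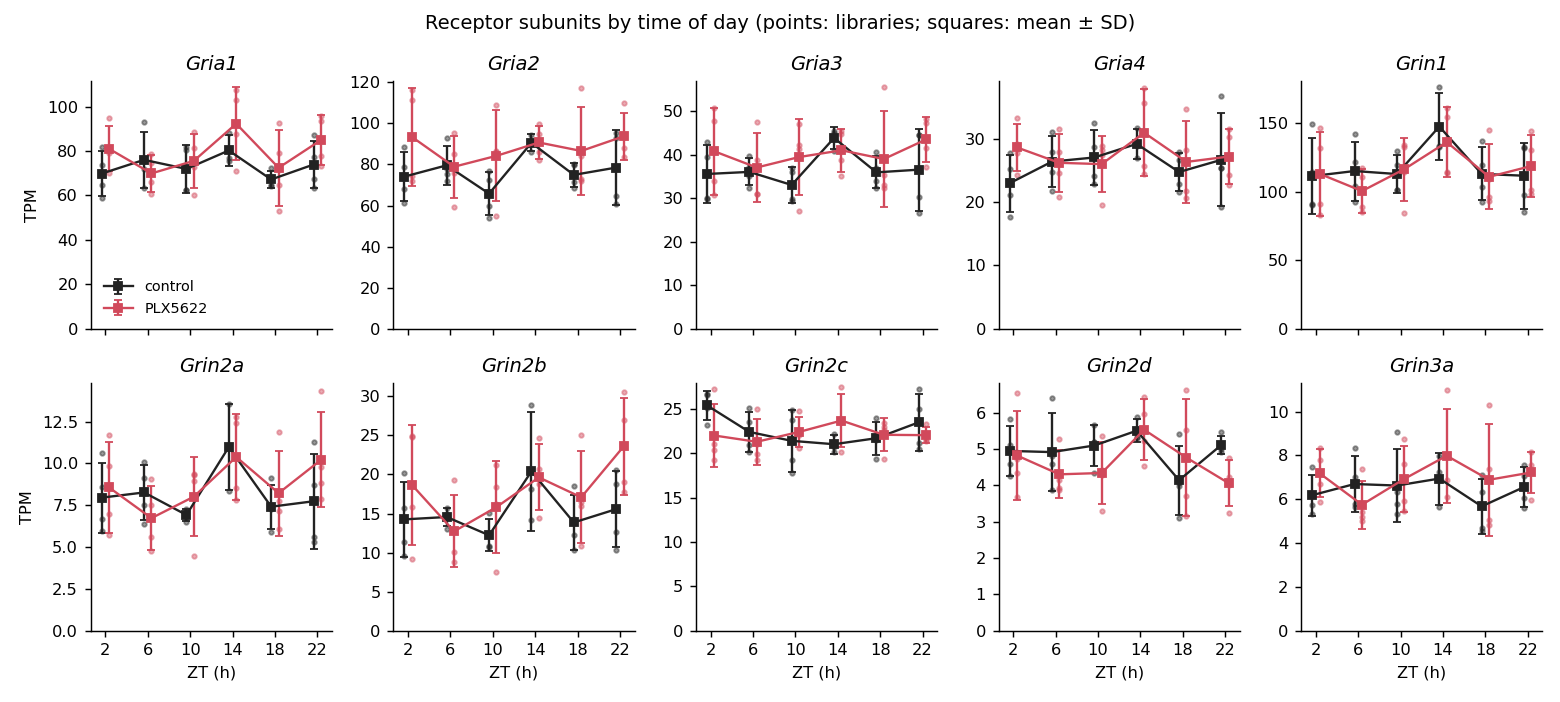
TPM of each subunit by Zeitgeber time in hours, with points for libraries and squares with bars for the mean ± SD of each group (black, control, red, PLX5622, 4 mice per group and 3 at control ZT14). Grin1 in control mice has a mean of 147.5 TPM at ZT14 and of at most 115.0 TPM at other times, and the error bars of the diets overlap at nearly all times.

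Most of the variation in these genes lay between mice of the same diet and time. Differences between mice within groups held 67.7% to 82.4% of the variance of each member on the log2 scale (median 74.3%, beside 70.4% over all genes tested). With 47 libraries in 12 groups, most of the variance would lie within groups even if no group differed. The residual SD within groups was largest for Grin2b, at 0.43 on the log2 scale, which was above that of 97.8% of the 2863 genes whose mean lay within 0.5 of it on that scale. It was smallest for Grin2c, at 0.15, above 18.9% of 2626 such genes. The median over the members was 0.26, beside 0.21 over all genes.

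The deviations from the group means were positively correlated across the 47 libraries for all 36 pairs of members without Grin2c, with Pearson's r from 0.398 to 0.931 and a median of 0.724. All 36 had an adjusted p of r under 0.05 in a two-sided permutation test within groups (100000 permutations, adjusted over 75 relations). Positive relations were also frequent among all genes tested. Over all pairs of them, the median r was 0.14, 69.9% were above 0, 18.9% reached 0.398 and 2.18% reached 0.724. The permutation test was not run over all these pairs, so the share of them that would pass it is not known. Gria2 and Gria3 moved together most closely, with r = 0.931 and Spearman's rho = 0.916 (adjusted permutation p = 2.42e-05 and 2.34e-05, from the smallest p that the permutations can give), and r was 0.914 without the 2 libraries farthest from the median. Grin1 and Grin2a had r = 0.921 and rho = 0.914, with the same adjusted permutation p-values. In the 2 control mice at ZT22 with the most Grin2a, 11.3 and 8.7 TPM, Grin1 was 132.2 and 131.8 TPM, and in the other two, with 5.3 and 5.6 TPM of Grin2a, it was 84.8 and 97.5 TPM. Grin2c ran the other way, with r from -0.598 to -0.170 in its 9 pairs, of which 7 passed. The share of all gene pairs that reach such negative values was not computed. The relation of Grin2c to Grin1 was r = -0.598 and rho = -0.570 (adjusted permutation p = 0.000165 and 0.000401), and r was -0.574 without the 2 farthest libraries. Counts scaled to library size (CPM) gave the same signs, with r from 0.143 to 0.947 for the 36 pairs and from -0.809 to -0.347 for those of Grin2c.

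The level of Grin1 also differed by the replicate numbers in the labels, of which no source used here says what they stand for. Grin1 in both mice numbered 3 and 4 exceeded both mice numbered 1 and 2 in 9 of the 11 groups of 4. This count was made for Grin1 alone, so the share of all genes with such a pattern is not known. With the mean of each number also removed, a step added after seeing the data, the 36 pairs without Grin2c kept r above 0 (0.225 to 0.869, median 0.613), and over all gene pairs the median was 0.152, with 38.9% at 0.225 or above. The pairs of Grin2c then ran from -0.257 to -0.007, and its r with Grin1 was -0.202. No test was made of these values, and the permutation p-values above take no account of the numbers.

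Values of a library share its composition, since TPM sums to the same total in each, and 2 properties of the libraries moved with the subunits. The mitochondrial share of counts had r from -0.813 (Gria4) to -0.498 (Gria2) with all members other than Grin2c, and 0.205 with Grin2c (rho from -0.816 to -0.502, and 0.229). Over all genes tested, 37.6% had an r of -0.498 or below with it. The summed level of the excitatory neuron markers had r = 0.814 with Grin1 and 0.804 with Grin2a (rho = 0.846 and 0.832). With Grin2d it had r = 0.173 and with Grin2c -0.297 (rho = 0.264 and -0.322). How many of all genes reach such values with this sum was not computed, so a relation particular to the subunits is not shown. Most of this sum was Slc17a7, at a mean of 554 TPM in control mice, where each other marker averaged 5.02 to 33.8 TPM. The adjusted permutation p-values of r were 0.402 for Grin2d and 0.0569 for Grin2c with these markers, and 0.223 for Grin2c with the mitochondrial share, and the rest were under 0.05. Those of rho were 0.16, 0.0476 and 0.191 for the same relations, so Grin2c with these markers passed by rho and not by r. The total count of a library had r from -0.217 to 0.015 with the members, with no adjusted permutation p under 0.05. The part of these properties in the covariation was not tested.

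**Figure D4:**
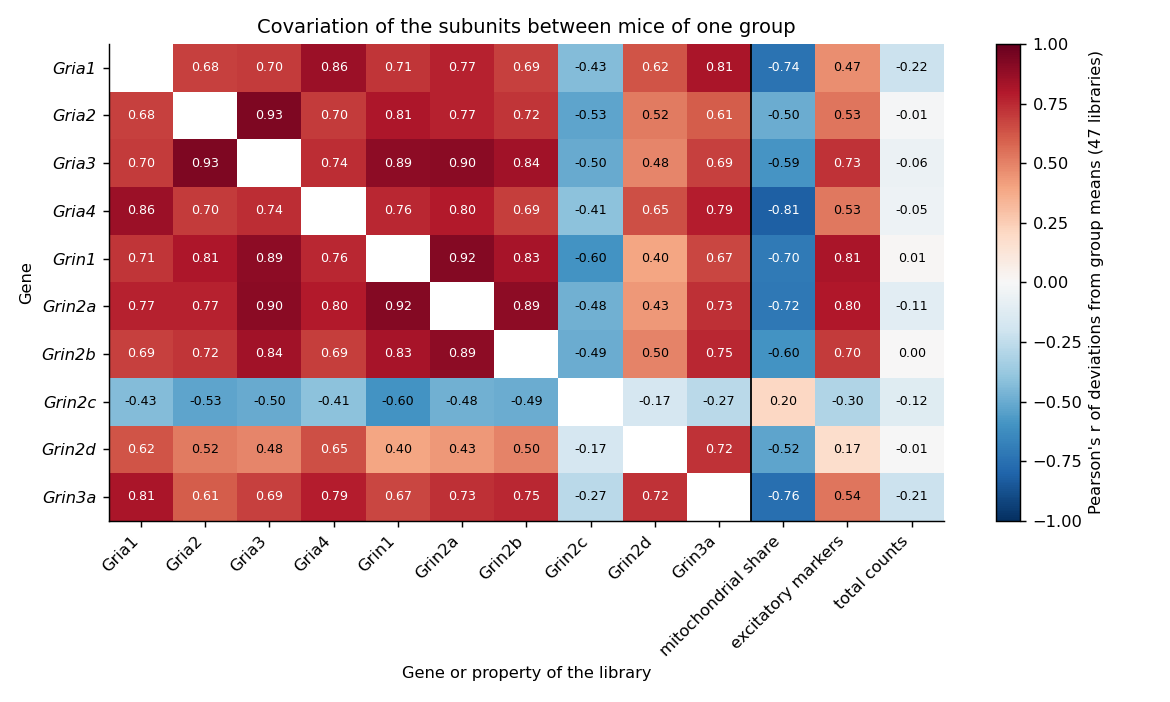
Pearson's r between the deviations of each pair of subunits from their group means over 47 libraries, and, to the right of the line, with the mitochondrial share of counts, the summed excitatory neuron markers and the total counts. Red is positive and blue negative, the row and column of Grin2c are blue against all other subunits, and the highest value is 0.931 for Gria2 and Gria3.

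Across the 12 group means, the members most like another member were Gria2 and Gria3 (r = 0.942), Gria1 and Grin3a (0.918) and Grin2a and Grin2b (0.914). Grin2c was most like Grin2d, with r = 0.247. Over all genes tested, the 2 closest patterns were Mtmr6 and the glutamate receptor gene Grm5 for Gria2 (0.958 and 0.955), Snx30 and the chloride transporter gene Clcn3 for Gria1 (both 0.963), and Nap1l3 and Tspyl4 for Gria4 (0.981 and 0.979). Among the NMDA receptor genes they were Nol6 and the channel gene Asic2 for Grin1 (0.978 and 0.971), the calcium pump gene Atp2a2 and D430041D05Rik for Grin2a (0.981 and 0.977), and Cadm1 and Rnf150 for Grin2b (0.952 and 0.946). For Grin2c they were Sgsm2 and Gm42791 (0.908 and 0.894), for Grin2d Foxq1 and Lmf2 (0.936 and 0.903), and for Grin3a Dock9 and Nav2 (0.964 and 0.954). These values are descriptions over 12 points, picked from 14580 genes.

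Among 49 genes for related receptors, auxiliary subunits, scaffolds and enzymes of the glutamate synapse, 48 were tested. Grin3b, the NMDA receptor gene left out of the 10, had a mean of 0.147 TPM and was the gene not tested. By diet, 1 of the 48 passed, Shank1, which was lower in PLX5622 mice, where 2.58% of all genes passed in that direction. Shank1, a scaffold of the postsynaptic density, had a lowest, median and highest level of 89.1, 146.6 and 194.7 TPM in control and 90.1, 122.2 and 155.0 TPM in PLX5622 mice. The PLX5622 values lay in the lower part of the control range. The log2 difference was -0.24 (SE 0.07, adjusted p = 0.0344 in limma). This call was lost without the 8 libraries with Gabra6 (-0.24, adjusted p = 0.117 in limma) and when any of 13 single libraries was left out (adjusted p up to 0.0601). It held with edgeR (log2 difference -0.31, adjusted p = 0.00074) and with DESeq2 (-0.31, adjusted p = 0.000103). In limma it also held with median-of-ratios scaling (adjusted p = 0.0175) and with the replicate block (adjusted p = 0.0187). The kainate receptor gene Grik2 had a difference of 0.21 (adjusted p = 0.0710) and Shank3 one of -0.17 (adjusted p = 0.149 in limma). By role, 0 of 7 related receptors, 0 of 12 AMPA receptor auxiliary subunits, 0 of 2 Neto genes, 1 of 16 scaffolds, 0 of 6 kinases and phosphatases, 0 of 3 pentraxins and 0 of 2 editing and co-agonist enzymes passed by diet.

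Over the day, 3 of the 48 passed in limma (Homer1, Shank2 and Dlg1), a share near the 5.26% of all genes. Homer1, which links glutamate receptors to calcium stores and includes an activity-induced short form, had group means of 79.5 TPM at ZT2 and 39.2 TPM at ZT10 in control mice and of 80.5 TPM at ZT2 and 47.1 TPM at ZT6 in PLX5622 mice. Control mice had 71.2, 73.2, 77.6 and 96.2 TPM at ZT2 and 45.9, 35.0, 33.2 and 42.6 TPM at ZT10, so these extremes of the day did not overlap. PLX5622 mice had 76.5, 59.0, 93.0 and 93.4 TPM at ZT2 and 40.0, 47.5, 46.96 and 53.8 TPM at ZT6, again apart. Extremes that did not overlap in both diets were found for 4 of the 48 genes and for 10.5% of all genes. The amplitude of Homer1 was 0.33 ± 0.06 (SE) with a peak at ZT21.5 (adjusted p = 0.00105 in limma), and it passed without any single library. Shank2, a postsynaptic scaffold that binds Homer proteins, had an amplitude of 0.21 ± 0.04 (SE) with a peak at ZT20.8 (adjusted p = 0.00799 in limma), and means from 32.5 TPM at ZT10 to 51.3 TPM at ZT2 in control mice. Dlg1, which encodes SAP97, had an amplitude of 0.10 ± 0.03 (SE) with a peak at ZT21.8 (adjusted p = 0.0409 in limma). Its call was lost without any of 18 single libraries (adjusted p up to 0.0837) and without the 8 libraries with Gabra6 (adjusted p = 0.108). With ZT as a factor it was also lost (adjusted p = 0.0568 in limma). The call held with median-of-ratios scaling (adjusted p = 0.00185 in limma), edgeR (adjusted p = 0.00299) and DESeq2 (adjusted p = 0.000542). In the test of a difference in rhythm 0 of the 48 passed. Before adjustment 3 had a p under 0.05 (Cnih2, Shank3 and Dlg4), beside 669 of the 14580 genes. JTK_CYCLE called 0 of 48 on the control diet, beside 0.0754% of all genes, and 1 on PLX5622, beside 0.610%. This was the kainate receptor gene Grik5 (adjusted p = 0.0371 over all genes), with PLX5622 means of 98.4 TPM ± 6.30 at ZT14 and 72.9 TPM ± 6.25 at ZT6 (SD, n = 4 each). That call was lost without any of 12 single libraries, with median-of-ratios scaling (adjusted p = 0.187) and without the libraries with Gabra6 (adjusted p = 0.193).

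**Figure D5:**
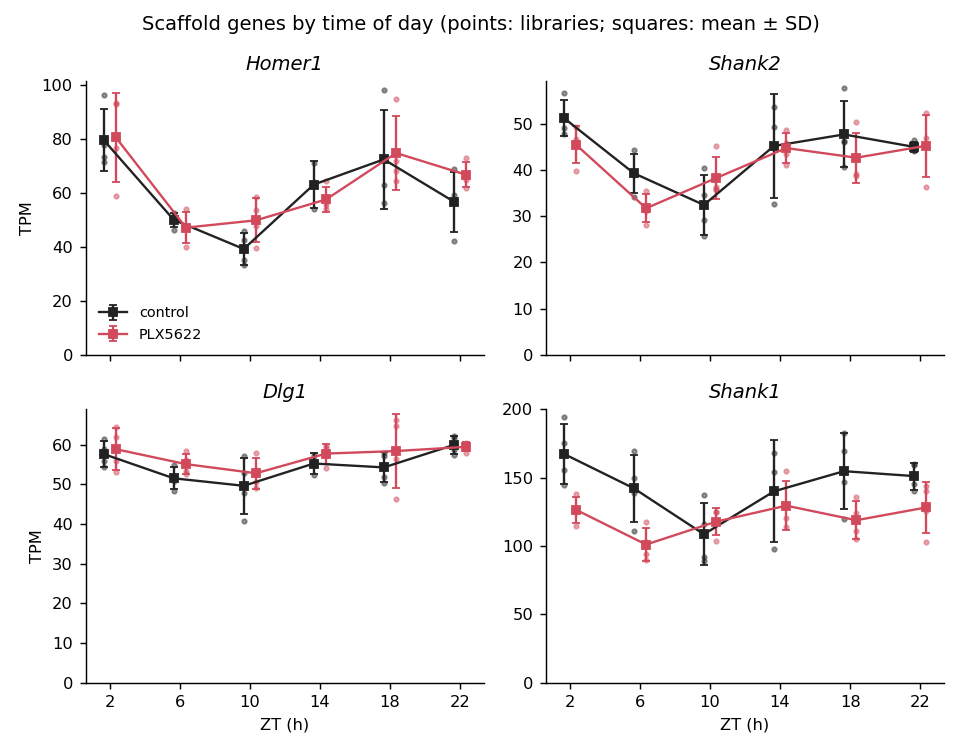
TPM of Homer1, Shank2, Dlg1 and Shank1 by Zeitgeber time in hours, with points for libraries and squares with bars for the mean ± SD of each group (black, control, red, PLX5622). Homer1 falls from about 80 TPM at ZT2 to its lowest mean of 39.2 TPM at ZT10 in control and 47.1 TPM at ZT6 in PLX5622 mice, and Shank1 is lower in PLX5622 mice at 5 of 6 times.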

How the data were processed

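RNA was taken from microdissected cortex, and Illumina paired-end libraries were sequenced on NovaSeq and HiSeq instruments, which the labels do not assign to samples. For the TPM values, the authors aligned reads to GRCm38.p6 with STAR, quantified them with Salmon on the Gencode annotation and deposited TPM per gene. A second table is named for FPKM, but the authors deposited whole-number counts per gene in it, and its aligner and annotation are not given in the sources used here. The submitters' processing notes list STAR, featureCounts, edgeR, limma and mm10 without roles. RNA integrity numbers and sequencing metrics, part of the study's model, were not used here.

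Groups were taken from the labels, which give no batch. Genes averaging 1 TPM or more were tested with limma 3.58.1 in R 4.3.3 on log2(TPM + 1). The terms were diet and a 24-h cosine and sine of ZT, plus their interactions for a difference in rhythm. This follows the study's formulas. Such fold changes understate those of low genes. JTK_CYCLE was rewritten with 6 phases, exact nulls and Bonferroni adjustment over phases. P-values were adjusted by Benjamini-Hochberg over all 14580 genes. Each library is a separate mouse, so p-values measure the spread between mice. In 69 pairs of libraries of a group the chi-square per degree of freedom was at least 4.56, above counting error. Members were counted at a median of 346 (Grin2d) to 6787 (Gria2) reads per library. Deviations from group means were correlated with 100000 permutations within groups. Both methods were tested on simulated data.

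The 10 members, the 49 related genes and the markers were chosen with earlier results of these data known. All members are named, related genes where they passed a test or were among the smallest p, and the 2 genes most like a member, which for Gria3 are not reported here. The settings tried instead were the absence of a filter, a filter at 5 TPM, a pseudocount of 0.1, median-of-ratios scaling, edgeR 4.0.16 with TMM or DESeq2 size factors, DESeq2 1.42.0, a replicate block, ZT as a factor and leaving out each library. Leaving out the libraries with Gabra6, adding 3 residual principal components and removing the means of the replicate numbers were chosen after seeing the data. Gene positions were taken from GENCODE M21, in which 99.7% of the TPM identifiers were found. Python 3.11.15, numpy 2.4.6, pandas 2.3.3, scipy 1.17.1 and matplotlib 3.10.9 were used.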

Additional observations from a re-analysis of the deposited data

Results flagged for a closer look

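Of 154 sets of 4 mice checked for a library far from the other three (all members and the called scaffold genes, by group), 5 held one, and chance alone would give about 7.7. Gria3 was 55.5 TPM in the fourth PLX5622 mouse at ZT18 and 32.3 to 35.3 TPM in the others. In the second PLX5622 mouse at ZT10, Gria4 was 19.5 TPM and Grin2a 4.47 TPM, while the others had 27.5 to 28.8 TPM and 8.92 to 9.34 TPM. That library had Gabra6 at 1.79 TPM. Grin3a was 7.38 TPM in the third PLX5622 mouse at ZT6 and 5.01 to 5.41 TPM in the others. Shank2 was 45.2 TPM in the first PLX5622 mouse at ZT10 and 35.8 to 36.3 TPM in the others.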

How the results depend on the processing

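The direction of all 10 differences by diet held in every setting tried, with Grin2d not tested at a mean of at least 5 TPM. The counts of subunits passing were 0 by diet, rhythm, rhythm within a diet and difference in rhythm, and 0 in each fit without 1 library. They moved to 1 by diet with DESeq2 (Gria2), and, with 3 principal components, to 2 by diet (Gria2 and Gria3) and 1 by rhythm (Grin1). Those components came from the residuals of the same libraries, so calls made with them are no separate support. Of the 48 related genes, 1 passed by diet. This became 2 with median-of-ratios scaling, 2 with edgeR under either normalization, 3 with DESeq2, 7 with 3 principal components and 0 without the libraries with Gabra6, and 0 to 2 without 1 library. The 3 that passed by rhythm became 5 with median-of-ratios scaling, 6 with edgeR under either normalization, 7 with DESeq2 and 9 with 3 principal components, and 2 to 4 without 1 library. The cause of these changes was not tested.

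Over all genes, the 503 calls by diet became 1243 with edgeR, 1247 with edgeR and DESeq2 size factors, 1355 with DESeq2 and 1679 with 3 principal components. The 767 by rhythm became 1345 with median-of-ratios scaling, 2066 and 2061 with edgeR, 2445 with DESeq2, 1609 with ZT as a factor, 2696 with 3 principal components and 426 without the libraries with Gabra6. Of the calls by diet, 74.8% were lower in PLX5622 mice, but 38.3% with 3 principal components and 87.1% without the libraries with Gabra6.

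The labels do not say that a replicate number marks a shared cage, litter or day, and the numbers were not treated as pairs. Deviations of libraries with the same number had a mean r of 0.051, against -0.017 for other numbers, and 76 of 253 such pairs exceeded 0.1, while 24 of 47 libraries correlated best with their own number, a hint from the data and not from the design. With the replicate block, 0 subunits passed by diet, rhythm, rhythm within a diet or difference in rhythm, 1 related gene by diet, 4 by rhythm and 0 for a difference in rhythm, and 578 and 1043 of all genes passed by diet and rhythm. The block moved the rhythm of Grin1 from an unadjusted p of 0.122 to 0.00972 in limma (adjusted p = 0.0889). With the means of the numbers removed, r moved from -0.598 to -0.202 for Grin1 and Grin2c and from 0.931 to 0.869 for Gria2 and Gria3.

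Shank1 lost its call without PLX5622 mouse 3 at ZT22 or 2, 3 or 4 at ZT6, or without control mouse 1 at ZT10, 1 or 3 at ZT14, 1 or 2 at ZT18, 1 or 3 at ZT2, or 1 or 4 at ZT6 (adjusted p up to 0.0601 in limma). Dlg1 lost its rhythm call without PLX5622 mouse 2, 3 or 4 at ZT10, 1 or 4 at ZT18, 1 at ZT2, 1 at ZT22 or 1 or 3 at ZT6, or without control mouse 3 or 4 at ZT10, 2 at ZT18, 2 at ZT2, 1, 2 or 4 at ZT22 or 3 or 4 at ZT6 (up to 0.0837). Grik5 lost its JTK_CYCLE call without PLX5622 mouse 1, 2, 3 or 4 at ZT10 or ZT14, 4 at ZT18, 2 or 4 at ZT2 or 4 at ZT6 (adjusted p up to 0.110), and with no filter (0.0768).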
